A study of Mus musculus with 4 samples.

Results

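The genes described here handle iron in the liver or set how much iron enters the blood. They are the 10 genes Hamp, Hamp2, Hfe, Tfr2, Trf, Tfrc, Slc11a2, Slc40a1, Fth1 and Ftl1, chosen by their gene symbol. Of these 10 genes, 9 had a row of their own among the 27027 rows of the count table. Trf had none, and its reads stood in a row shared with Srprb and Gm20425. All 9 genes had at least 20 reads in at least 1 library at each time, so none was lost to the filter on low counts.

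Hepatic RNA of male C57BL/6J mice, 9 to 12 weeks old and fasted for 10 h, was measured by massive analysis of cDNA ends (MACE), which counts reads from the 3′ ends of polyadenylated mRNA. Control mice received 0.9% NaCl, and treated mice received acetaminophen (APAP) at 300 mg/kg by intraperitoneal injection, a dose used to model acute liver injury. For each time, 24 h and 48 h, RNA of 6 vehicle-treated and of 7 APAP-treated mice was pooled into 1 sample per group, so that 4 pools gave 4 libraries. With 1 library per group there was no spread between replicates, no test was run, and differences between mice or pools cannot be told apart from the treatment. Totals lay between 4859661 and 5698778 reads. Reads are given below as vehicle and then APAP, first for 24 h and then for 48 h.

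Hepcidin, the product of Hamp, is a peptide hormone that hepatocytes secrete. It binds the iron exporter ferroportin (Slc40a1) on macrophages, enterocytes and hepatocytes and brings about its degradation, so that less iron reaches the plasma. Hepatocytes raise hepcidin transcription in response to iron, through BMP and SMAD signalling with the membrane proteins Hfe, Tfr2 and hemojuvelin, and in response to inflammation, through IL-6 and STAT3. Inside cells, iron regulatory proteins bind hairpins called iron-responsive elements in the mRNAs of ferritin, ferroportin and transferrin receptor 1 and control their translation or stability.

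The hepcidin genes of the mouse are a pair of neighbours on chromosome 7 (GRCm38, GENCODE release 21), with Hamp at chr7:30942368-30944032 and Hamp2 at chr7:30922372-30924681, both on the minus strand. Their promoter windows are shown so that the 2 sequences can be compared. Whether a difference between the windows bears on the reads of the 2 genes was not tested. The sequences come from RefSeq (GRCm38.p6) and span 250 bases before to 50 bases after the annotated start. They lie at chr7:30943980-30944279 for Hamp and chr7:30924132-30924431 for Hamp2, and read 5′ to 3′ on the minus strand. The Hamp2 window lies wholly inside the gene span given above, so the start it uses is not the outer end of that span. Capitals mark GGCGCC in Hamp, the 6 bases of Hamp2 aligned to it, and a match to TTCNNNGAA in both. GGCGCC is the core of the BMP response element of hepcidin promoters, and TTCNNNGAA is the consensus to which STAT factors bind.
Hamp: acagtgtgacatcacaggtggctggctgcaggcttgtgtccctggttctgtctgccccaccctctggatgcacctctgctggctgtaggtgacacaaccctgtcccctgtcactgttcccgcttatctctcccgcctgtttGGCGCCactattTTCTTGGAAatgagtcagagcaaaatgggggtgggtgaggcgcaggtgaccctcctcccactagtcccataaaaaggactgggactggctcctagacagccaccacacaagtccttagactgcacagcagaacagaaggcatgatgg
Hamp2: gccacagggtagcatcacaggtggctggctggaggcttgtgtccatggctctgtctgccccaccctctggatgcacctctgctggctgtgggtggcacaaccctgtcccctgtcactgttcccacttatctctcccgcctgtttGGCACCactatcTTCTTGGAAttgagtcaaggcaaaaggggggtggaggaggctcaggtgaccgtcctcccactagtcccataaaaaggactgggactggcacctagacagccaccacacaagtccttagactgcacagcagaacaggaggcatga
Of 297 aligned bases, 276 (92.9%) were identical. The GGCGCC of the Hamp window began at base 142, counted from 1 at the 5′ end. In Hamp2 the aligned letters were GGCACC, by the substitution G145A (the Hamp base, its position in the Hamp window, the Hamp2 base), and GGCGCC did not occur elsewhere in that window. The match to TTCNNNGAA was TTCTTGGAA in both, at base 154 of the Hamp window and base 157 of the Hamp2 window. The E-box CAGGTG occurred 2 times in each window. Searched on both strands, GGCGCC was found in 11.9%, TTCNNNGAA in 8.30% and CAGGTG in 20.2% of 32851 windows of the same length, so none of these letters is rare and a match is a description of sequence and not a binding site. The motifs did not overlap one another in the Hamp and Hamp2 windows. A window was listed for 7 of the 10 genes (not for Trf, Slc11a2 and Slc40a1), and among the other 5 GGCGCC was found in Tfrc.

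Hamp had more reads in both APAP pools than in either control pool. It was counted with 5953 (vehicle) and 15401 (APAP) reads at 24 h and with 5889 and 19538 at 48 h. The control pools nearly coincided, and the highest value was that after APAP at 48 h. After scaling by size factors (median of ratios over all 4 libraries), Hamp was 1.94-fold higher at 24 h (95% counting interval 1.88 to 2.00) and 2.90-fold higher at 48 h (2.82 to 2.99). Here and below, intervals are exact intervals for the reads of the libraries compared and cover counting error only. In bulk RNA, fewer cells of a type and less RNA per cell cannot be told apart, and the same holds for more. The control pools differed by 0.933-fold (48 h over 24 h, 0.900 to 0.967), a smaller step than either APAP fold.

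Hamp2, whose peptide is not known to control iron as hepcidin does, differed in the other direction. It was counted with 493 and 273 reads at 24 h and with 1670 and 669 at 48 h. Each APAP pool lay below the control pool of its own time, yet the later APAP pool lay above the earlier control pool. Hamp2 was 2.41-fold lower at 24 h (2.08 to 2.81) and 2.85-fold lower at 48 h (2.61 to 3.13). The control pools themselves differed 3.19-fold (2.89 to 3.54), more than either APAP fold. Against the control pool of the other time, Hamp2 was 7.70-fold lower at 24 h and 1.12-fold higher at 48 h (0.995 to 1.26), so its direction at 48 h rested on the control pool of the same time. What set the control pools apart was not tested.

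Because the last 300 bases of the Hamp and Hamp2 transcripts are 90.9% identical over an alignment of 307 positions, some reads could have been assigned to the wrong gene. Their sum was therefore examined also, a choice made after seeing the data. The sum was 6446 and 15674 reads at 24 h and 7559 and 20207 at 48 h. It was 1.82-fold (1.77 to 1.88) and 2.34-fold (2.28 to 2.40) higher after APAP. Without APAP, Hamp2 made up 7.65% of these hepcidin reads at 24 h (exact binomial interval 7.01 to 8.32%) and 22.1% at 48 h (21.2 to 23.1%). With APAP it made up 1.74% (1.54 to 1.96%) and 3.31% (3.07 to 3.57%). The share, which does not depend on how libraries were scaled, was lower in both APAP pools than in both control pools. The gene Gm44662 lies on the other strand at the 3′ end of Hamp2, and whether counting used strand is not given in the sources used here.

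**Figure D1:**
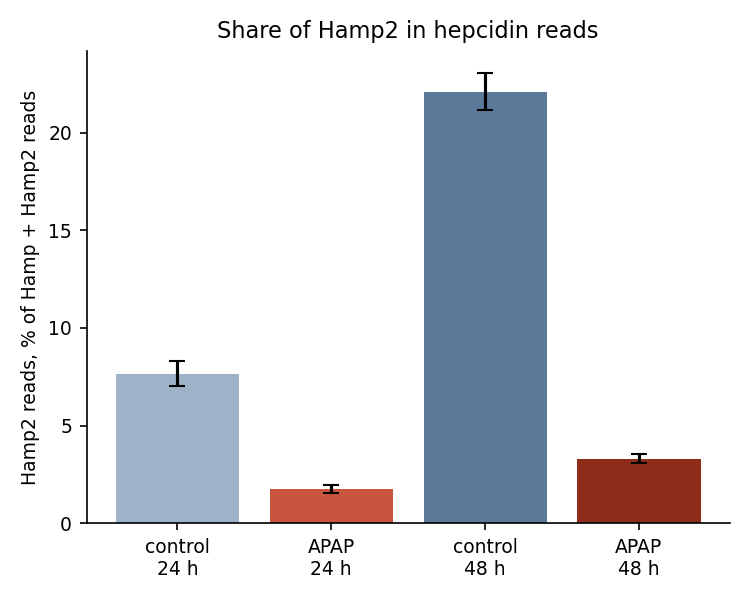
Hamp2 reads as a percentage of Hamp and Hamp2 reads together (y axis) in the 4 libraries (x axis), with exact 95% binomial intervals as error bars and 1 pooled library per bar. The control pools stand at 7.65% and 22.1% and the APAP pools at 1.74% and 3.31%.

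Of the membrane proteins that sense iron on hepatocytes, Hfe was lower after APAP and Tfr2 differed little. Hfe, the haemochromatosis protein that binds transferrin receptor 1 (chr13:23702034-23710854, minus strand), had 171 and 135 reads at 24 h and 213 and 159 at 48 h. Both APAP pools lay below both control pools once scaled. Hfe was 1.69-fold lower at 24 h (1.34 to 2.14) and 1.53-fold lower at 48 h (1.24 to 1.89). Tfr2, transferrin receptor 2, which binds iron-loaded transferrin and takes part in hepcidin control (chr5:137569840-137587481, plus strand), had 823 and 1090 reads at 24 h and 996 and 1169 at 48 h. Once scaled, its fold was 0.992 at 24 h (0.906 to 1.09) and 1.03 at 48 h (0.942 to 1.12). Differences smaller than these intervals span were not detectable at this depth.

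Iron reaches cells bound to transferrin. The row shared by Trf, Srprb and Gm20425 held 55204 and 54421 reads at 24 h and 59944 and 67126 at 48 h. Transferrin is the iron carrier of plasma and is made by hepatocytes (Trf, chr9:103204001-103230444, minus strand), but these reads were not divided among the 3 genes. After APAP the row was 1.35-fold lower at 24 h (1.34 to 1.37) and at 0.979 of the control level at 48 h (0.969 to 0.990).

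Tfrc, transferrin receptor 1, through which cells take up transferrin iron (chr16:32608920-32632794, plus strand), was counted with few reads. It had 28 and 66 at 24 h and 47 and 39 at 48 h. The APAP pool was the higher one at 24 h and the lower one at 48 h. Its fold was 1.77 at 24 h (1.12 to 2.85) and 0.726 at 48 h (0.462 to 1.13), and the interval at 48 h included 1. Against the control pool of the other time the fold was 1.12 at 24 h (0.756 to 1.66) and 1.15 at 48 h (0.689 to 1.94), so the opposite directions rested on which control pool was used.

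Slc11a2, the divalent metal transporter DMT1 that moves iron out of endosomes (chr15:100387898-100425072, minus strand), had 52 and 106 reads at 24 h and 66 and 83 at 48 h. The APAP pools lay above both control pools. Its fold was 1.53 at 24 h (1.09 to 2.17) and 1.10 at 48 h (0.786 to 1.54), and the latter interval included 1. Against the other control pool the fold at 24 h was 1.28 (0.929 to 1.76), whose interval included 1 as well.

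Slc40a1, ferroportin, the exporter that hepcidin controls (chr1:45908068-45926523, minus strand), had more reads in both APAP pools than in both control pools. It had 151 and 302 reads at 24 h and 183 and 292 at 48 h. Its mRNA was 1.498-fold higher at 24 h (1.23 to 1.83) and 1.40-fold higher at 48 h (1.16 to 1.69). The mRNA of the hormone and that of its target were thus both higher after APAP, and protein was not measured. Markers of Kupffer cells, the liver macrophages that express much ferroportin, summed to 1340 and 1285 reads normalized by size factors at 24 h and to 1291 and 1859 at 48 h. Scaled to the library total (RPM) the sums were 243 and 265 at 24 h, so that the direction at 24 h depended on the scaling. Of 8 such markers, 1 was at least 2-fold higher at each time, beside 6.17% of all genes tested at 24 h and 5.64% at 48 h. Markers of infiltrating monocytes and macrophages summed to 301 and 676 normalized reads at 24 h and to 311 and 1263 at 48 h. None of the markers of either list was at 0 in all 4 libraries. Their part in the Slc40a1 values was not tested.

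Ferritin, the shell that stores iron, is built of heavy chains (Fth1, which oxidizes iron) and light chains (Ftl1). Fth1 (chr19:9980598-9985098, plus strand) had 13088 and 26150 reads at 24 h and 13987 and 24274 at 48 h. The control pools lay close together and both APAP pools far above them. Fth1 was 1.497-fold higher at 24 h (1.47 to 1.53) and 1.52-fold higher at 48 h (1.49 to 1.55), and the control pools differed by 1.01-fold (0.984 to 1.03).

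Ftl1 (chr7:45457944-45459884, minus strand) did not share this difference. Its own row had 3466 and 4460 reads at 24 h and 3250 and 2963 at 48 h. Once scaled, the APAP pool at 48 h was the lowest. Its fold was 0.964 at 24 h (0.922 to 1.01), and it was 1.25-fold lower at 48 h (1.19 to 1.32). A second row, shared by Ftl1 and Gm22133, which overlaps the 3′ end of Ftl1 on the same strand, held more reads than the first. It had 13760 and 17184 reads at 24 h and 11138 and 10681 at 48 h, with folds of 0.936 (0.915 to 0.957) and 0.839 (0.817 to 0.861). The own row held between 20.1% and 22.6% of the reads of both rows in the 4 libraries. The 3′ end of Ftl1 is also at least 95% identical over at least 100 bases to 11 other annotated genes, among them Ftl1-ps1 (99% over 300 bases), so its counts are uncertain. Fth1 had no other gene above that limit. The ratio of Fth1 reads to Ftl1 reads of both rows was 0.760 and 1.21 at 24 h and 0.972 and 1.78 at 48 h. Within each time, heavy chain reads were thus higher relative to light chain reads after APAP, in a ratio that needs no scaling.

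**Figure D2:**
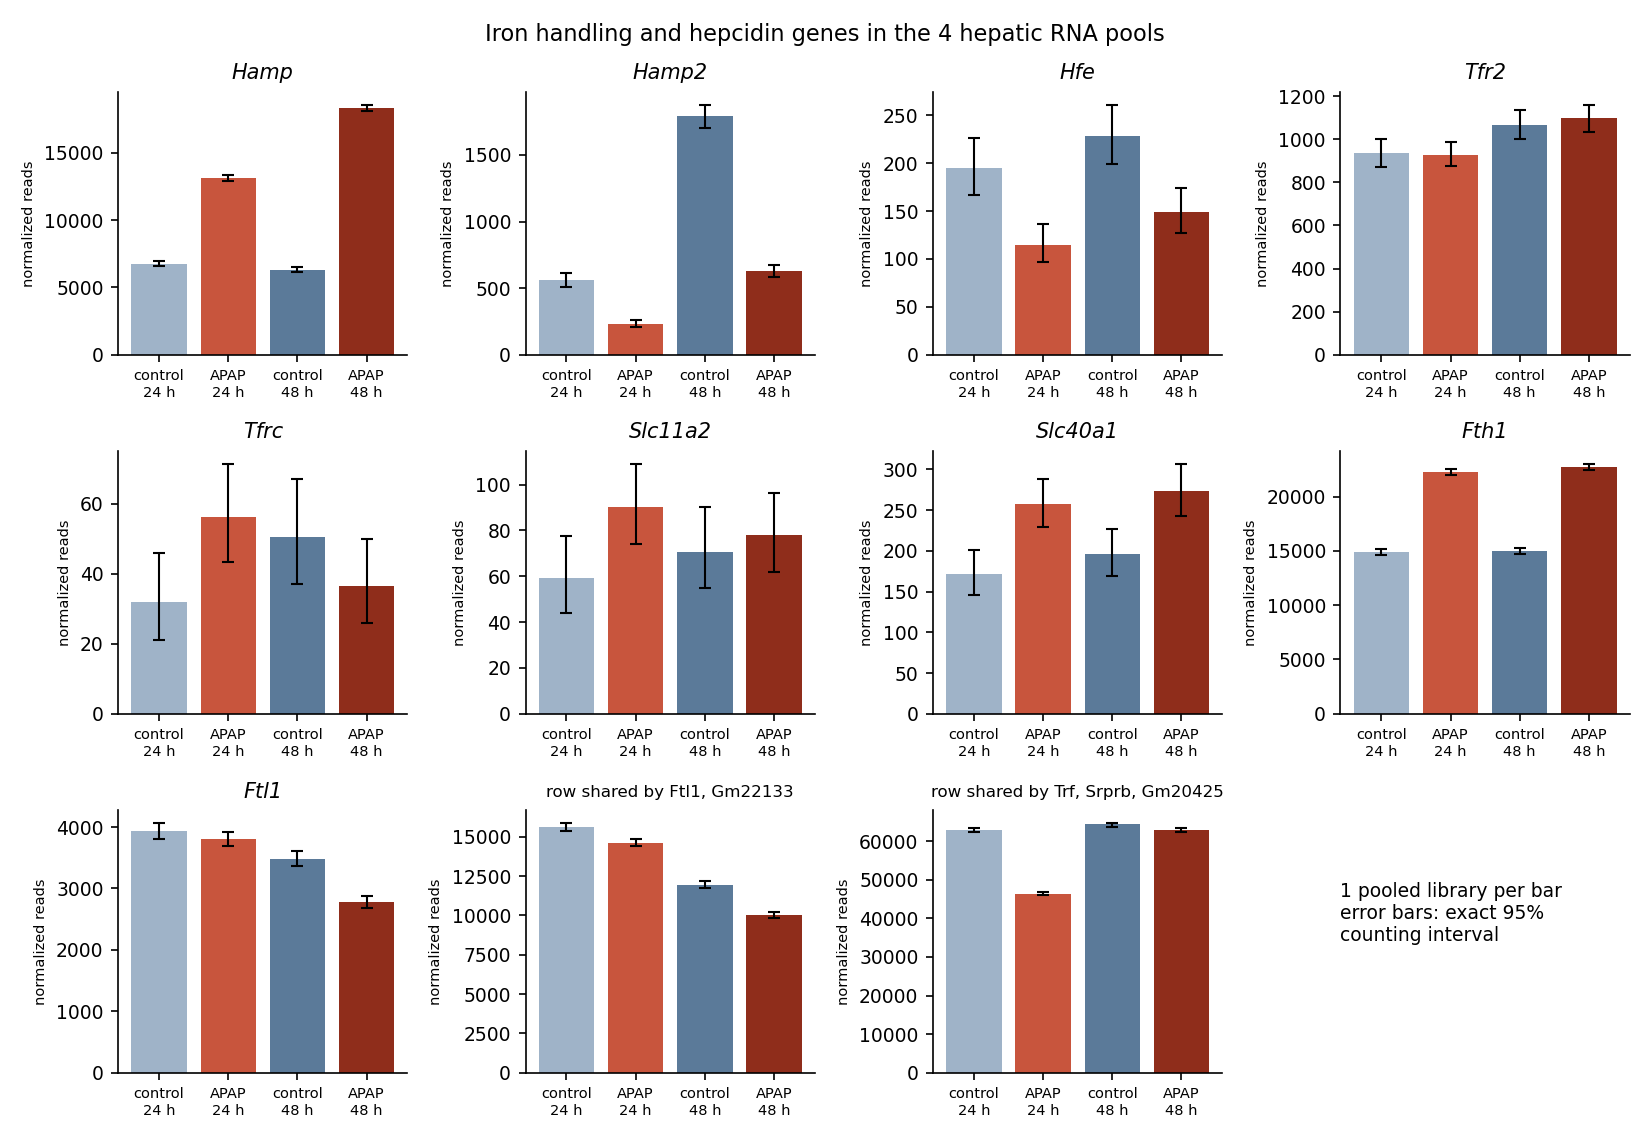
Reads normalized by size factors (y axes, each from 0) of the 9 genes with a row of their own and of the 2 shared rows in the 4 libraries (x axes). Each bar is 1 pooled library, and error bars are exact 95% counting intervals. Hamp and Fth1 are higher in both APAP pools than in both control pools, Hfe is lower, and Hamp2 differs between the control pools.

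Iron-responsive elements are shown for the 4 genes in whose annotated untranslated regions the hairpin pattern was found. An isoform of Slc11a2 is also known to carry an element in its 3′UTR, which this pattern did not find. The pattern was a loop of CAGTGN between 2 stretches of 5 bases that can pair with each other (G with T allowed), with an unpaired C before the first, and it was found in 175 of 21505 genes with annotated untranslated regions (0.814%). Each site is given as 30 bases of the mRNA strand, 5′ to 3′, from GENCODE release 21 transcripts on GRCm38, with the loop CAGTGN in capitals.
Tfrc site 1: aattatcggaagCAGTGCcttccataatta
Tfrc site 2: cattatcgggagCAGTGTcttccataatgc
Tfrc site 3: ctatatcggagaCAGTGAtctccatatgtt
Tfrc site 4: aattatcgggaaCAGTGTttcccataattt
Slc40a1: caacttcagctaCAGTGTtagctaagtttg
Fth1: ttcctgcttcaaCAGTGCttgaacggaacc
Ftl1: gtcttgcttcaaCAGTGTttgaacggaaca
The sites of Tfrc lie in its 3′UTR, at chr16:32631219-32631248, chr16:32631598-32631627, chr16:32631663-32631692 and chr16:32631710-32631739, the place of the elements that stabilize this mRNA when iron is low. Those of Slc40a1 (chr1:45925464-45925493), Fth1 (chr19:9982732-9982761) and Ftl1 (chr7:45459778-45459807) lie in the 5′UTR, where the elements hold back translation. Among the 3 genes with a site in the 5′UTR, Slc40a1 and Fth1 were about equally higher after APAP (1.498-fold and 1.497-fold at 24 h, 1.40-fold and 1.52-fold at 48 h), whereas Ftl1 was at 0.964 and 0.797. Tfrc changed places between the times, as described above. A match does not show that a protein bound there, and MACE does not measure translation.

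Read over the 9 genes, few passed 2-fold. At 24 h, 0 of 9 were at least 2-fold higher, against 6.17% of all 10892 genes tested, and 1 (Hamp2) was at least 2-fold lower, against 4.93%. At 48 h, 1 (Hamp) was at least 2-fold higher, against 5.64% of 10831 genes, and 1 (Hamp2) was at least 2-fold lower, against 5.31%. Between the control pools 1.89% of 10157 genes were at least 2-fold higher and 1.47% lower at 48 h than at 24 h, and Hamp2 was the 1 gene of the 9 among them. The median log2 fold of the 9 genes was 0.58 at 24 h and 0.04 at 48 h, beside 0.03 and -0.01 over all genes tested. Hamp ranked 744 of 10892 genes from the top at 24 h and 221 of 10831 at 48 h, and 2.65% and 2.17% of genes lay below Hamp2. Scaling by library totals in place of size factors raised every log2 fold by 0.19 at 24 h and 0.27 at 48 h. That scaling took Hamp to 2.21-fold and Tfrc to 2.01-fold at 24 h and moved Tfr2 and the own row of Ftl1 at 24 h from just below control to above it (1.13-fold and 1.10-fold). It also moved from below control to above it the row shared by Trf at 48 h (1.18-fold) and the row shared by Ftl1 and Gm22133 (1.065-fold at 24 h and 1.01-fold at 48 h). The fold at 48 h differed from that at 24 h by more than counting error in 3 of the 9 genes (Hamp, Tfrc and Ftl1), against 21.9% of 10360 genes tested at both times with reads in every library.

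**Figure D3:**
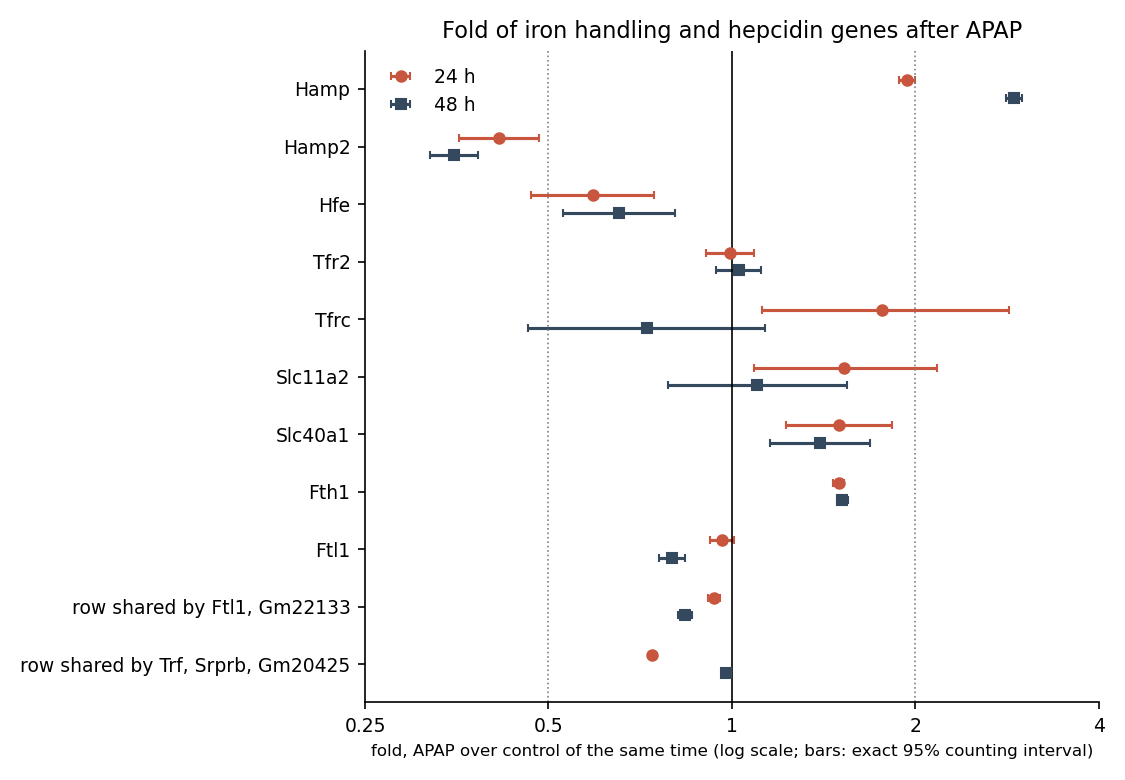
Fold of APAP over control of the same time (x axis, log scale) for the 9 genes and the 2 shared rows (y axis), at 24 h (circles) and 48 h (squares), with exact 95% counting intervals and dotted lines at 2-fold. Hamp lies right of 1 and Hamp2 and Hfe left of 1 at both times, and Tfrc lies on opposite sides.

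**Figure D4:**
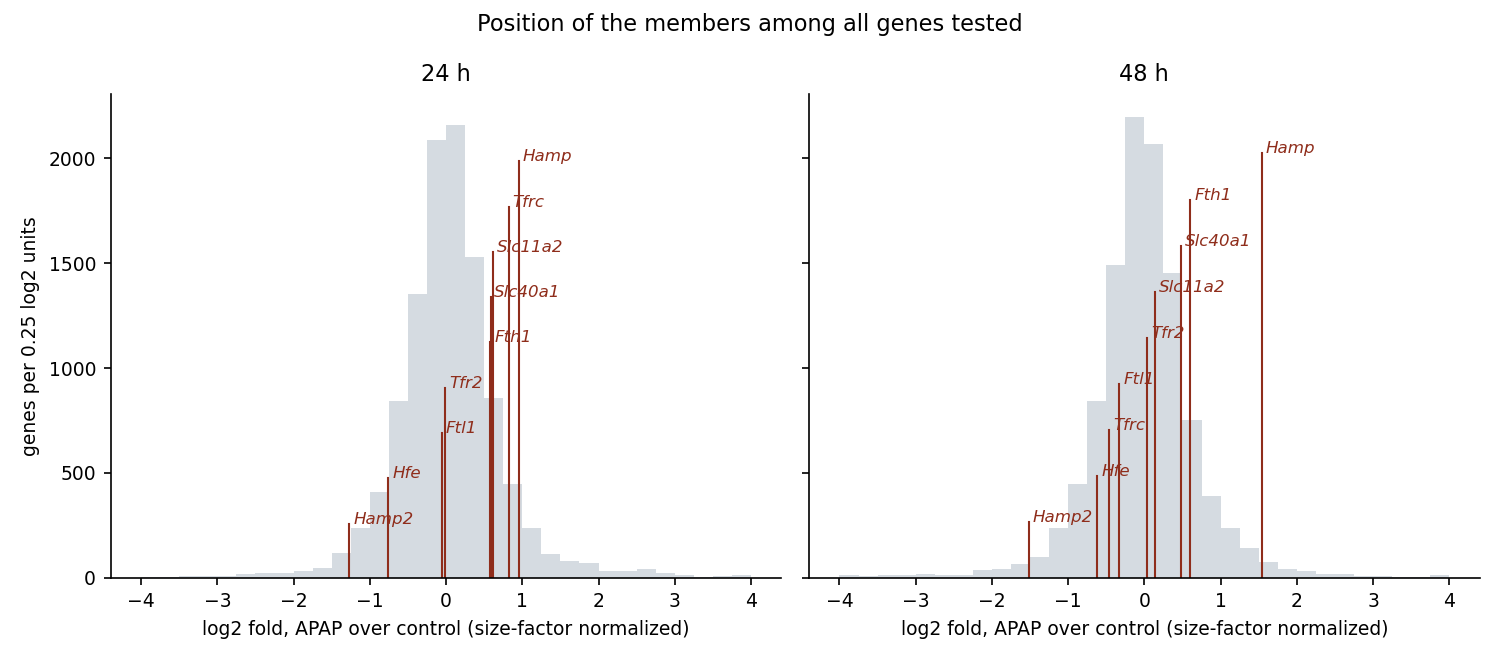
Number of genes per 0.25 log2 units of fold (y axis) against the log2 fold of APAP over control (x axis) for all genes tested at 24 h and 48 h, with a line at each of the 9 genes and values beyond -4 or 4 in the end bars. At 48 h Hamp (1.54) and Hamp2 (-1.51) stand in opposite tails.

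Genes that control hepcidin and the rest of the iron pathway were read from a list of 67 genes in 6 roles, of which 65 had a row of their own (Erfe and Ftmt had none). Of the 61 that reached 20 reads at 24 h, 9 were at least 2-fold higher, beside the 6.17% of all genes, and 0 were lower, beside 4.93%. Of 62 that did so at 48 h, again 9 were higher, beside 5.64%, and 0 were lower, beside 5.31%. Against the control pool of the other time, 2 were lower at 24 h. The list was written with earlier results of these data known, so these counts are a description only. At each time 2 of the 9 higher genes reached 20 reads in the APAP pool only (Socs3 and Steap2 at 24 h, Id1 and Socs3 at 48 h), so that these could be counted as higher but not as lower. The list's median log2 fold was 0.08 at 24 h and 0.10 at 48 h, beside the medians over all genes given above.

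Among 22 genes of hepcidin control, 3 passed 2-fold at 24 h and 6 at 48 h, all higher, beside 6.17% and 5.64% of all genes tested. Id1, a target of BMP and SMAD signalling, had 20 and 129 reads at 24 h and 9 and 167 at 48 h, or 4.83-fold (3.003 to 8.17) and 16.2-fold (8.35 to 36.1). The control pools of Id1 differed by 2.36-fold, and against the control pool of the other time its fold was 11.4 at 24 h (5.82 to 25.5) and 6.89 at 48 h (4.32 to 11.6). Atoh8, a transcription factor gene that follows BMP signalling, was 2.66-fold (1.83 to 3.97) and 2.44-fold (1.77 to 3.41) higher. Its control pools differed by 1.39-fold, and against the other control pool its fold was 1.92 at 24 h, under the limit, and 3.39 at 48 h. Smad7, the inhibitory SMAD that such signalling induces, was 1.87-fold (1.25 to 2.88) and 3.67-fold (2.45 to 5.67) higher. Smad6, the other inhibitory SMAD, named after its values were seen, stood at 1.02 (0.546 to 1.96) and 1.999 (1.17 to 3.51).

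On the arm of IL-6 and STAT3, Socs3, the feedback inhibitor, had 11 and 138 reads at 24 h and 17 and 49 at 48 h, or 9.40-fold (5.09 to 19.3) and 2.52-fold (1.43 to 4.67). Il6ra, the receptor chain for IL-6, was 1.42-fold (1.06 to 1.91) and 2.47-fold (1.75 to 3.54) higher. Its control pools differed by 1.71-fold, and against the control pool of the other time it was 2.42-fold higher at 24 h (1.72 to 3.45) and 1.45-fold at 48 h (1.08 to 1.95). Scaled, Socs3 stood highest in the APAP pool at 24 h and Hamp in that at 48 h. Fgl1, a secreted protein known as an antagonist of BMP ligands, was 1.30-fold (1.24 to 1.37) and 3.54-fold (3.31 to 3.78) higher, with 2341 and 1139 reads in the earlier and the later control pool, a difference of 2.18-fold, and against the other control pool its folds were 2.84 (2.66 to 3.04) and 1.62 (1.54 to 1.71). The genes of highest level in this role that passed no threshold were Tmprss6, the protease that cleaves hemojuvelin, at 0.649 and 0.665, and the transcription factor gene Cebpa, at 0.561 and 0.637. Tmprss6 had 1064 and 921 reads at 24 h and 1609 and 1224 at 48 h. Its intervals lay below 1 at both times, as did those of Cebpa, Hfe and Hjv, the hemojuvelin gene. Hjv, named after its values were seen, stood at 0.650 and 0.567. The control pools of Tmprss6 differed by 1.43-fold. Against the other control pool the fold of Tmprss6 was 0.455 at 24 h (0.419 to 0.493). At 48 h it was 0.949 (0.873 to 1.03), and that interval included 1.

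Among 7 genes of iron uptake and reduction with enough reads, 3 passed 2-fold at 24 h and 0 at 48 h. Slc39a14, the transporter ZIP14 that carries iron not bound to transferrin into hepatocytes, had 130 and 447 reads at 24 h and 158 and 339 at 48 h, or 2.58-fold (2.12 to 3.16) and 1.88-fold (1.55 to 2.28). The metalloreductase genes Steap4 and Steap2 were 2.32-fold (1.85 to 2.94) and 2.87-fold (1.14 to 8.62) higher at 24 h. Steap2 rested on 6 and 23 reads at 24 h, and it had 23 and 25 at 48 h. Its control pools differed by 3.61-fold, and against the later control pool its fold at 24 h was 0.794 (0.426 to 1.48). Lrp1, the haem-hemopexin receptor, and Slc39a8, the transporter ZIP8, the most abundant others, stood at 1.06 and 0.738 at 24 h and at 0.966 and 1.15 at 48 h.

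None of the 6 genes of iron chaperones, ferritin turnover and iron regulatory proteins passed 2-fold at either time. Over all genes tested, 6.17% were at least 2-fold higher and 4.93% lower at 24 h, and 5.64% and 5.31% at 48 h. Pcbp1 and Pcbp2, chaperones that deliver iron to ferritin, stood at 1.11 and 1.36 at 24 h and at 1.05 and 1.07 at 48 h. The other 4 genes lay between 0.659 and 1.39 at 24 h and between 0.620 and 1.20 at 48 h, with the lowest value that of Aco1 at 24 h and that of Ireb2 at 48 h. These 2 genes, named after their values were seen, encode the iron regulatory proteins.

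Of 5 genes of plasma iron, haem and haemoglobin binding and ferroxidases with enough reads, 1 (Lcn2) was at least 2-fold higher at 24 h. At 48 h 2 were (Lcn2 and Hp), beside 6.17% and 5.64% of all genes tested at 24 h and 48 h. Lcn2, a siderophore-binding acute-phase protein, had 3710 and 11781 reads at 24 h and 673 and 3474 at 48 h, or 2.38-fold (2.29 to 2.47) and 4.51-fold (4.16 to 4.91). Hp, haptoglobin, which binds free haemoglobin, had 35838 and 49852 reads at 24 h and 18855 and 57656 at 48 h, or 1.04-fold (1.03 to 1.06) and 2.67-fold (2.63 to 2.72). Both were lower in the later than in the earlier control pool, by 5.85-fold and 2.02-fold, beside 1.07-fold for Hamp. Their folds at 48 h are relative to that lower control pool, and the later APAP pool held fewer Lcn2 reads than the earlier control pool. Against the control pool of the other time, Lcn2 was at 13.91 at 24 h (12.87 to 15.05) and at 0.772 at 48 h (0.737 to 0.809). Hp was at 2.10 at 24 h (2.065 to 2.136) and at 1.327 at 48 h (1.309 to 1.344). The direction of Lcn2 at 48 h and the time at which Hp passed 2-fold thus rested on the control pool used. Hpx, which binds haem, stood at 0.897 and 1.35, and Cp, the plasma ferroxidase ceruloplasmin, at 1.10 and 1.75.

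Of the haem genes, 2 of 13 were at least 2-fold higher at 24 h and 1 of 14 at 48 h, beside 6.17% and 5.64% of all genes tested. Hmox1, haem oxygenase 1, which frees iron from haem, had 75 and 224 reads at 24 h and 66 and 176 at 48 h, or 2.24-fold (1.72 to 2.95) and 2.33-fold (1.75 to 3.14). Slc48a1, a transporter that carries haem out of the lysosome, was 2.03-fold (1.74 to 2.39) and 1.19-fold (1.01 to 1.40) higher. Against the other control pool Hmox1 was at 2.70 at 24 h and 1.935 at 48 h, and Slc48a1 at 1.79 and 1.35. The calls of Hmox1 at 48 h and of Slc48a1 at 24 h thus rested on the control pool used. Blvrb and Alad, the most abundant others, stood at 0.953 and 0.810 at 24 h and at 1.30 and 0.717 at 48 h. None of the 8 genes of mitochondrial iron and iron-sulphur clusters passed 2-fold. Their median log2 folds of -0.27 and -0.39 were below that of all genes, and Glrx5, the most abundant, stood at 0.844 at 24 h and at 0.588 at 48 h.

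**Figure D5:**
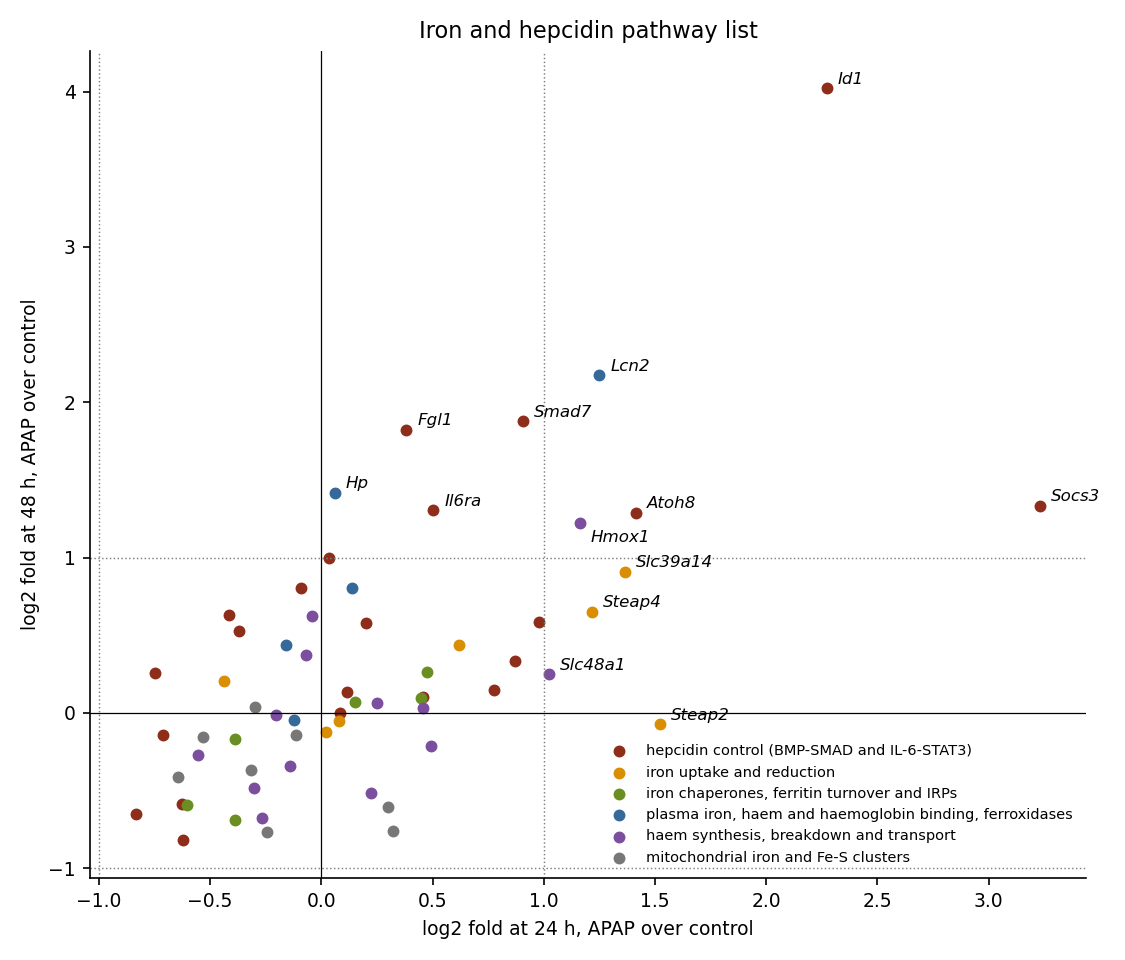
Log2 fold of APAP over control at 24 h (x axis) and 48 h (y axis) for the genes of the iron pathway list with enough reads at both times, coloured by role, with dotted lines at 2-fold and names for genes past 2-fold at either time. Id1, Socs3 and Lcn2 stand farthest from the centre, and no gene is at least 2-fold lower.

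Marker genes of several cell types differed between the pools. Beside the counts below, 6.17% of all genes tested were at least 2-fold higher and 4.93% lower at 24 h. At 48 h these shares were 5.64% and 5.31%. Of 6 general hepatocyte markers, 0 passed 2-fold in either direction at either time. Their folds lay between 0.561 (Ttr) and 1.17 (Apoa1) at 24 h and between 0.617 (Apoa2) and 1.06 (Ttr) at 48 h. Each had at least 4015 reads (Cps1, control pool at 24 h) in every library, so markers of the labelled tissue were present throughout. Of 8 pericentral hepatocyte markers, 6 at 24 h and 7 at 48 h were at least 2-fold lower after APAP. Their sums were 20138 and 7996 normalized reads at 24 h and 22400 and 6822 at 48 h. Of 8 periportal markers, 3 were at least 2-fold lower and 1 higher at 24 h, and 1 lower and 1 higher at 48 h. Their sums were 28123 and 19991 normalized reads at 24 h and 34520 and 29096 at 48 h, the latter 6201 and 6284 RPM, so that the direction at 48 h depended on the scaling. Neutrophil markers, among which Ly6g had no row, summed to 15.9 and 199 normalized reads at 24 h and to 13.9 and 156 at 48 h. S100a8 and S100a9 made up most of the APAP sums, with 118 and 63.9 normalized reads at 24 h and 99.4 and 35.6 at 48 h. Both reached 20 reads in the APAP pools only. Cxcr2, Csf3r and Mmp8 had at most 11 reads in any library, and Cxcr2 had 0 in the APAP pool at 48 h. Erythroid markers summed to 20182 and 14123 normalized reads at 24 h and to 13752 and 7337 at 48 h, with 0 of 5 at least 2-fold lower at 24 h and 2 at 48 h. In this sum the later control pool thus lay below the earlier one, and also below the APAP pool at 24 h. Most of the sum came from the haemoglobin genes Hba-a1, Hba-a2, Hbb-bs and Hbb-bt. Alas2 went the other way, with 329 normalized reads in the earlier and 447 in the later control pool and 171 in the APAP pool at 24 h. Hba-a2 and Hbb-bt were also slightly higher in the later control pool than in the APAP pool at 24 h. The part of these cell types in the values of the iron genes was not tested.

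The genes whose profile over the 4 libraries lay nearest to Hamp, by Euclidean distance of centred log2 normalized counts (pseudocount of 1) among 6925 genes, were Lbp (0.207), Apoa4 (0.212) and Amn1 (0.222). Lbp, the lipopolysaccharide-binding protein of plasma, was 2.33-fold and 2.67-fold higher after APAP, and Apoa4, an apolipoprotein, was 2.22-fold and 2.49-fold higher. Nearest to Tfrc were Cables2 (0.0872), Rrn3 (0.107) and Map2k7 (0.119), and nearest to Slc40a1 were Ppp1r2 (0.0322), Kdm7a (0.0447) and Arhgap5 (0.0471). Hamp2, examined after its values had been seen, had no close neighbour, with Gstm5 (0.710), Ropn1l (0.848) and Acmsd (0.937) the nearest. A distance over 4 libraries describes these libraries only.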

How the data were processed

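The authors treated total hepatic RNA with DNase, pooled it at equal shares per group (2 µg per pool) and prepared 3′mRNA libraries with the MACE-kit v.2. They removed duplicate reads by unique molecular identifiers, used cutadapt for trimming, removed poly(A)-tails, mapped to mm10 and counted reads per gene with HTSeq, and the count table was used as deposited, without normalization. The mapper and the versions are not given in the sources used here. Its columns of RPM and of the authors' own comparisons by DESeq2 (log2 ratio, p-value, FDR) were not used. Of 27027 rows, 2430 hold more than 1 gene identifier.

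Size factors were computed with DESeq2 1.42.0 in R 4.3.3 (TMM with edgeR 4.0.16 as an alternative), and folds, 95% exact intervals and plots with scipy 1.17.1, numpy 2.4.6, pandas 2.3.3 and matplotlib 3.10.9 in Python 3.11.15. A fold's interval was derived by the Clopper-Pearson method from how its reads were divided between both libraries. No pseudocount was added, and a count of 3 reads or fewer in either library was set to 3 for the fold. Where both counts were 3 or fewer, no fold was given. Genes that reached 20 reads in either library were set against the limit of 2-fold, and no p-value was computed. The procedure was run on simulated counts that varied by counting error only, so that run could not address differences between pools. Depth was 4859661 to 5698778 reads per library.

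Named were all 10 genes, every gene of the pathway list past 2-fold, at most 2 further genes per role with the highest mean normalized count, and the 3 nearest profiles among genes averaging 50 normalized reads or more. The genes and lists were chosen with earlier results of these data known. Alternatives covered scaling, floor, pseudocount, read filter, threshold and control pool. Treating the shared rows as Trf or adding them to Ftl1, and summing Hamp and Hamp2, were added after seeing the data. Transcript ends were compared with blastn 2.17.0. The values of 1 gene of the pathway list that this rule names are not reported here.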

Additional observations from a re-analysis of the deposited data

Results flagged for a closer look

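In 3 of the 9 genes the fold at 48 h differed from that at 24 h by more than counting error, by the exact 95% interval of the ratio of the 2 folds (48 h over 24 h). The same held for 21.9% of 10360 genes tested at both times with reads in every library. The ratio was 1.497 for Hamp (1.435 to 1.561), 0.4109 for Tfrc (0.2123 to 0.7922) and 0.827 for Ftl1 in its own row (0.7732 to 0.8845). The interval compares 4 libraries and not mice. Hamp was thus farther from control at 48 h. Ftl1 lay below control at 48 h, but its interval at 24 h included 1 (0.922 to 1.01). Against the other control pool Ftl1 was at 1.09 at 24 h (1.04 to 1.14). Tfrc lay above control at 24 h, but its interval at 48 h included 1 (0.462 to 1.13), on 28 to 66 reads per library. Against the other control pool Tfrc was at 1.12 at 24 h and 1.15 at 48 h, with both intervals including 1. For Hamp the control pools differed by 0.933-fold and the APAP pools by 1.40-fold (48 h over 24 h). For Tfrc the control pools differed by 1.58-fold (0.971 to 2.63) and the APAP pools by 0.651-fold (0.426 to 0.981).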

How the results depend on the processing

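No paired analysis was possible because each group held 1 pooled library, and no library could be left out. Of 88 recomputed counts and medians of the 9 genes, 65 stayed within their limits and 23 moved (counts within 1.5 times, medians between 0.119 and 0.6124 at 24 h and -0.3467 and 0.1809 at 48 h, the medians of the genes' interval bounds on the log2 scale), and the cause was not tested unless the alternative itself sets it. Library totals gave 2 genes at least 2-fold higher at 24 h and medians (log2) of 0.7688 and 0.3034 at 24 h and 48 h. Totals without the 10 most abundant genes gave 1 gene and 0.7456 and 0.2999. A limit of 1.5-fold gave 3 higher and 2 lower at 24 h and 2 higher and 2 lower at 48 h. Limits of 3-fold and of 5-fold gave 0 lower at 24 h and 0 higher and 0 lower at 48 h. The control pool of the other time gave 1 higher at 24 h, 0 lower at 48 h and medians of 0.1577 at 24 h and 0.2283 at 48 h. It also turned the direction of Hamp2 at 48 h, to a log2 fold of 0.1624 from -1.51. The sum of both control pools gave 1 higher at 24 h and 0 lower at 48 h, with a median of 0.4419 at 24 h. With the row shared by Trf counted, the median at 24 h was 0.2854. With Hamp and Hamp2 summed, 0 were lower at 24 h and 0 at 48 h, since Hamp2 was the lower gene at both times. Of 214 recomputed log2 folds of single genes, 178 stayed within their counting interval, 35 moved and 1 reversed. The sign changed in 9 of them, in Tfr2 and Ftl1 at 24 h and in Hamp2 and Tfrc at 48 h. Of 52 counts of the pathway list, 39 stayed within 1.5 times and 13 moved. Its 9 higher and 0 lower genes at each time became 14 higher and 7 lower at 24 h and 18 higher and 9 lower at 48 h with a limit of 1.5-fold. They became 2 and 4 higher at 3-fold, 1 and 1 at 5-fold, and 4 and 5 where the interval itself had to pass 2-fold. Both totals gave 14 higher at 48 h, and the other control pool gave 2 lower at 24 h. Tfrc and Slc11a2, with 28 to 106 reads, are limited by depth, whereas Hamp and Fth1 are not.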
